A study of Mus musculus with 2 samples.

Results

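The CXC chemokines are small secreted proteins that direct the migration of leukocytes, and 10 genes of this system were described here, out of the 31053 genes in the count tables. They were chosen by name and by role, with earlier results of these data known. They comprise 7 ligands (Cxcl1, Cxcl2, Cxcl3, Cxcl5, Cxcl12, Cxcl14 and Cxcl16), the signalling receptors Cxcr2 and Cxcr4, and the atypical receptor Ackr3. The cells came from the periodontal tissue of C57BL/6 mice of the genotype WT that were 8 weeks old. The study compared mice without treatment (control) with mice that had ligature-induced periodontitis (LIP), in which a thread tied around a molar lets bacterial plaque build up and the surrounding bone is lost. Cells were collected 7 days after the ligature was placed, and each group was sequenced as 1 library, made with a 10x Genomics 3′ kit from live gingival and alveolar bone surface cells of 5 pooled mice.

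Ligands with the Glu-Leu-Arg (ELR) motif, here Cxcl1, Cxcl2, Cxcl3 and Cxcl5, bind Cxcr2 and draw neutrophils into inflamed tissue. Cxcl12 binds Cxcr4, through which bone marrow stroma retains neutrophils and lymphocytes, and Ackr3 binds Cxcl12 and removes it by internalisation. Cxcl14 is made in epithelia without inflammation, and Cxcl16 is made as a membrane-bound ligand of Cxcr6.

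After filtering, 936 of 1212 LIP barcodes and 883 of 1169 control barcodes were kept, and 1 kept barcode sequence occurred in both libraries. The median cell held 5595 unique molecular identifiers (UMIs) in LIP and 10845 in the control. Cells were clustered without the CXC genes other than Pf4, and named from marker genes that include none of the 10 members. LIP cells included 324 neutrophil-like cells against 52 in the control, 77 against 42 macrophage-like, 27 against 51 T-like, 19 against 151 B-like and 99 against 197 epithelial-like. There were 79 and 48 vascular endothelial-like cells, 45 and 46 mural-like cells, 102 and 37 Schwann-like cells, and 55 and 110 osteogenic-like cells, a class marked by collagen, bone and fibroblast genes. Of the osteogenic-like cells, 25 in LIP and 90 in the control lay in a sub-cluster led by fibroblast genes. There a list of bone genes summed to 808 CPM in LIP and 27.5 CPM in the control. In the other sub-cluster it summed to 31305 and 24316.5 CPM. The LIP over control ratios of this class therefore compare different mixtures of cells. The level of a gene in a class is its summed UMIs per 1000000 UMIs of the pooled cells (CPM), with exact Poisson 95% intervals. These intervals cover counting error only. Because each group had 1 library, no p-value could be given, the spread between mice is unknown, and a difference between the libraries has no replicate check. A lower level in a pool can come from fewer positive cells of a kind or from less RNA per cell, and UMI levels of a class cannot tell these apart. UMIs at the 3′ end are not scaled by gene length, so levels are compared between cells for the same gene.

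**Figure D1:**
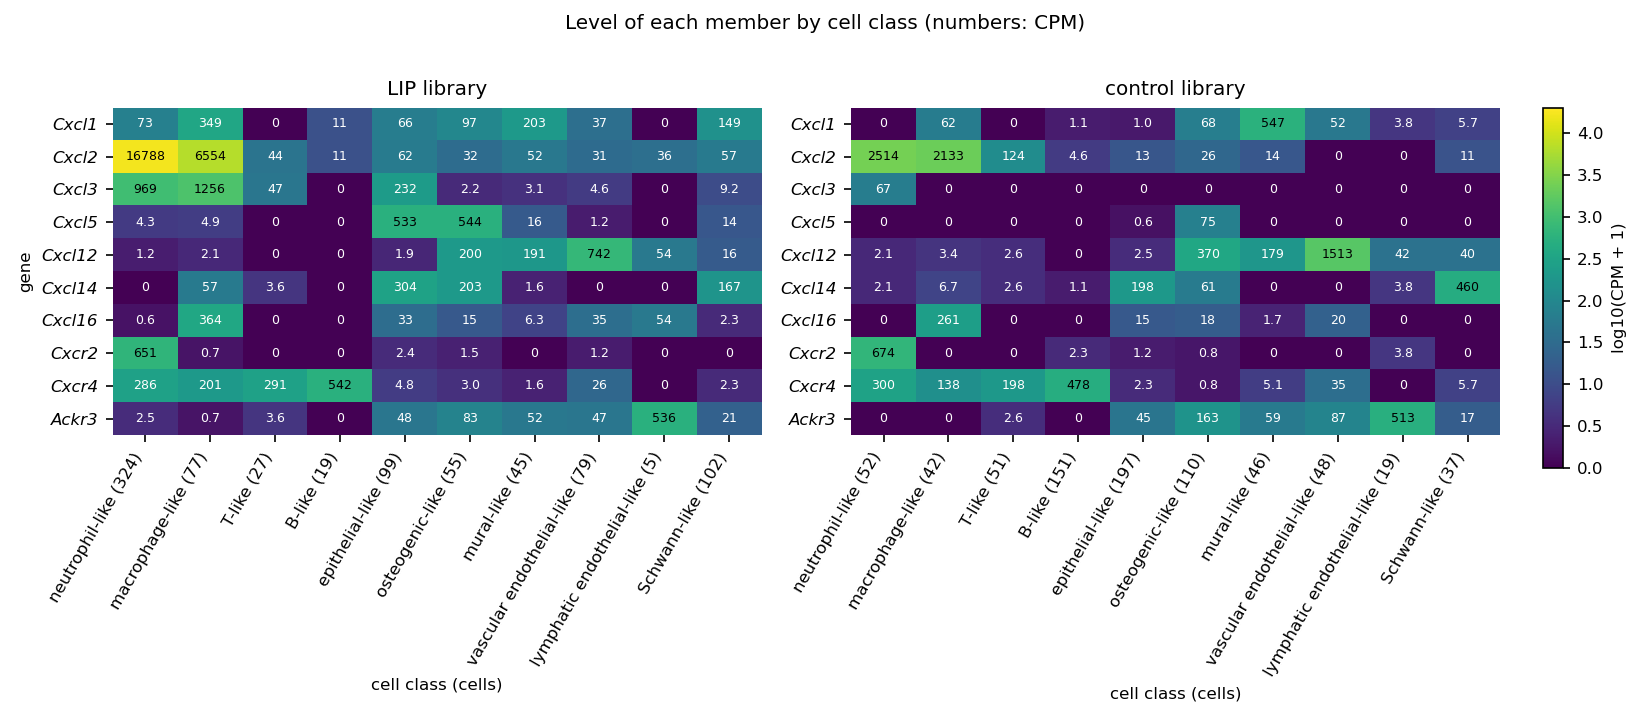
Level of each of the 10 genes (rows, CPM printed in each field, colour on a log10 scale of CPM + 1) in 10 cell classes (columns, cells in parentheses) of the LIP library (left) and the control library (right). Cxcl2 reached 16788 CPM in LIP neutrophil-like cells, Cxcr2 was almost confined to the neutrophil-like column in both libraries, and Cxcl12 was highest in vascular endothelial-like cells in both.

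The 4 ELR ligands lie close together. Among the protein-coding genes of the GENCODE M21 annotation of GRCm38 (mm10), 7 follow each other on the plus strand of chromosome 5 within 146.579 kb. They are Cxcl5, Ppbp, Pf4, Cxcl3, Cxcl15, Cxcl1 and Cxcl2, in this order. Cxcl5 spans 90759360 to 90761624, Cxcl3 90786103 to 90789600, Cxcl1 90891241 to 90893115 and Cxcl2 90903871 to 90905938, and each has 4 exons. The other members lie apart. Cxcl12 is on chromosome 6 (117168535 to 117181367, plus strand), Cxcl14 on chromosome 13 (56288643 to 56296551, minus strand) and Cxcl16 on chromosome 11 (70453983 to 70459984, minus strand), where Zmynd15 overlaps it on the other strand. Cxcr2 (74153989 to 74161246, plus strand), Ackr3 (90203980 to 90216751, plus strand) and Cxcr4 (128588199 to 128592293, minus strand) are on chromosome 1.

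Promoter sequences from 250 bases before to 50 bases after the start were taken from RefSeq (GRCm38.p6) and matched 8 of the 10 members. Cxcl5 and Cxcl16 had no entry. Both strands were searched for GGG, any 2 bases and then TTTCC, a form of the motif bound by NF-κB, the transcription factor of inflammatory signalling. Matches were found in the promoters of Cxcl1, Cxcl2 and Cxcl3, and its letters were not in the windows of Cxcl12, Cxcl14, Cxcr2, Cxcr4 and Ackr3. Of all 32851 promoters of this length, 1.63% held it. The stretch from 130 to 31 bases before the start is shown for the 3 ligands, since these 3 were high in LIP neutrophil-like or macrophage-like cells, with each match in capitals.
Cxcl1 (chr5:90891115-90891214, plus strand): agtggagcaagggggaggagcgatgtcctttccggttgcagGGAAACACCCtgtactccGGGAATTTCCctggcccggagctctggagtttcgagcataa
Cxcl2 (chr5:90903769-90903868, plus strand): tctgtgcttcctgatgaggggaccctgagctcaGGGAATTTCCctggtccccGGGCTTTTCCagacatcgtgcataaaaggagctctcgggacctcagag
Cxcl3 (chr5:90785971-90786070, plus strand): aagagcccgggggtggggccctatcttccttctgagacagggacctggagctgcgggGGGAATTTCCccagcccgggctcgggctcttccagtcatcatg
The same 10 letters, GGGAATTTCC, stood at 71 to 62 bases before the start in Cxcl1, at 97 to 88 in Cxcl2 and at 73 to 64 in Cxcl3. Cxcl1 held a further match on the minus strand and Cxcl2 a further match on the plus strand. A match describes the letters and does not show that a factor binds there.

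Across the 9 classes with at least 10 cells in each library, 35 of 90 pairs of a member and a class held at least 50 UMIs. Of these, 15 were at least 2-fold higher in LIP and 4 at least 2-fold lower, against 5.39% and 3.87% of all gene and class pairs with as many UMIs. The filter lets a pair pass on UMIs from the library where the gene is high, so the counts describe the 35 pairs and no more. All 15 pairs on the higher side belonged to ligands, namely 4 of Cxcl1, 3 each of Cxcl2 and Cxcl3, 2 each of Cxcl5 and Cxcl14, and 1 of Cxcl16. The 9 pairs of Cxcr2, Cxcr4 and Ackr3 lay between -0.98 and 0.56 on the log2 scale, although Ackr3 passed 2-fold lower under other settings, given with its values. The median log2 ratio of all genes tested in a class was within 0.06 of 0, except for -0.13 in osteogenic-like, 0.13 in T-like and 0.11 in B-like cells.

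**Figure D2:**
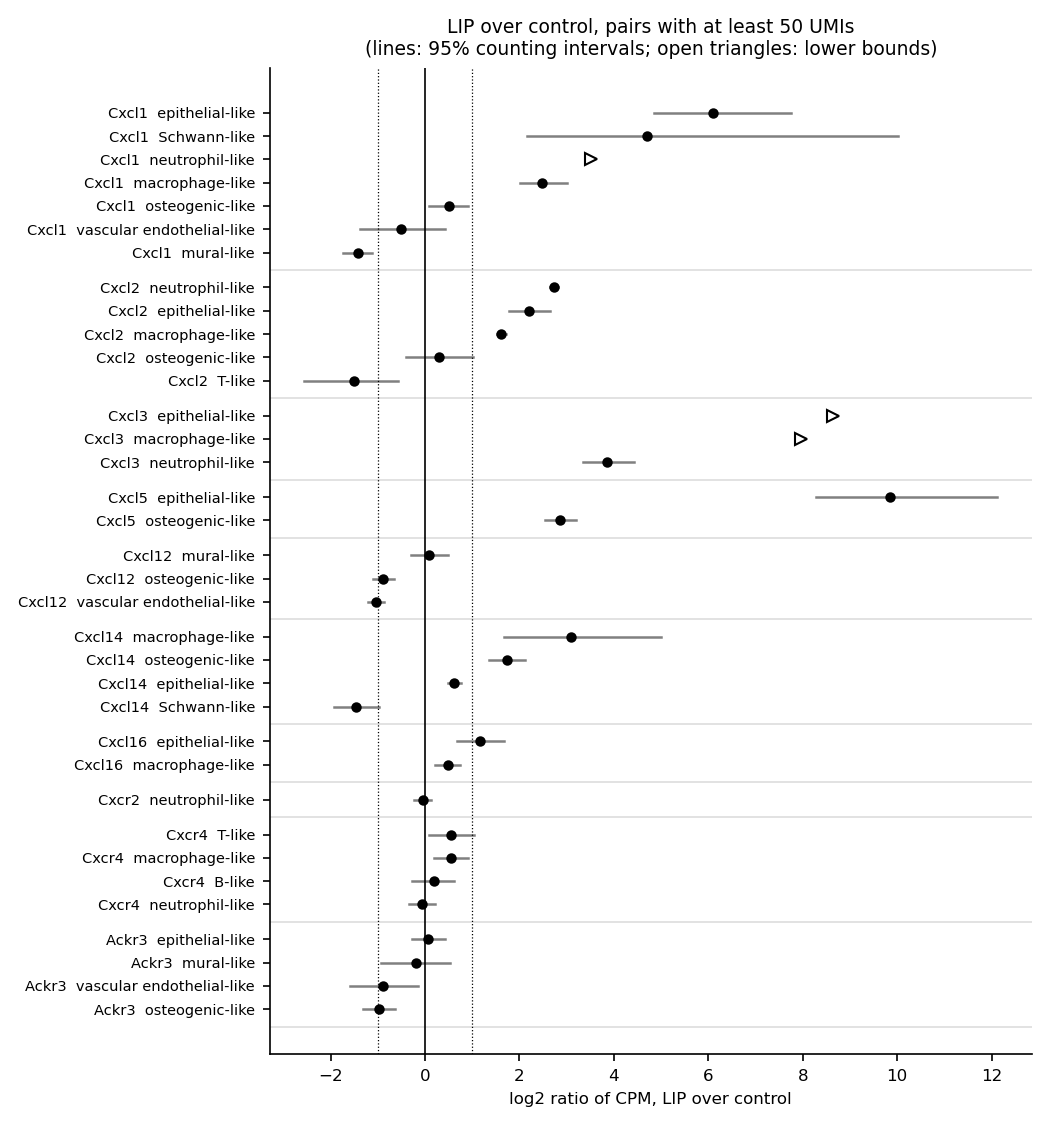
Log2 ratio of CPM, LIP over control (horizontal axis), for the 35 pairs of a gene and a cell class with at least 50 UMIs over both libraries. Dots and lines give the ratio with its 95% counting interval, open triangles are lower bounds against a control sum of 0, and the dotted lines mark a 2-fold difference. Most pairs past the right dotted line are ELR ligands, the 4 pairs past the left one include Cxcl1 in mural-like and Cxcl2 in T-like cells, and the 9 receptor pairs lie between the dotted lines in this setting.

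Cxcl2, an ELR ligand that neutrophils and macrophages release early in inflammation, had the most UMIs of the 10 genes in both libraries, 37165 in LIP and 2607 in the control. In neutrophil-like cells it stood at 16788 CPM in LIP (95% interval 16589.6 to 16988.8) and at 2514 CPM in the control (2372.5 to 2663). The LIP level was 6.68-fold higher, a log2 ratio of 2.74 (2.65 to 2.82). In this class 3 of the 5 members with at least 50 UMIs were at least 2-fold higher, against 12.5% of all genes tested there, and none was 2-fold lower (3.07% of all genes). Of these 3, Cxcl1 and Cxcl3 met that minimum only through LIP, so the count describes these pairs and no more. Cxcl2 UMIs were spread over many cells rather than a few. Of the 324 LIP cells, 309 held at least 1 UMI, and the cells ranged from 0 to 862 UMIs with a median of 51. In the control, 38 of 52 cells held a UMI, with a median of 8 and a highest value of 255.

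The neutrophil-like cells fell into sub-clusters that differed far more in Cxcl2 than the libraries did. The larger one was led by Acod1 and Ccl3, genes of activated neutrophils, and held 286 LIP and 33 control cells. The other, with 38 LIP and 19 control cells, was led by Ltf and Ngp, granule genes made before neutrophils leave the bone marrow. In LIP, Cxcl2 stood at 25763 CPM in the Acod1 sub-cluster and at 321 CPM in the Ltf sub-cluster, an 80.2-fold difference. In the control the values were 7005 and 208 CPM, a 33.7-fold difference. The share of cells in the Acod1 sub-cluster was larger in LIP, and within it Cxcl2 was still 3.68-fold higher in LIP (log2 1.88, 1.79 to 1.97). In the Ltf sub-cluster the log2 ratio was 0.63 (0.21 to 1.06).

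**Figure D3:**
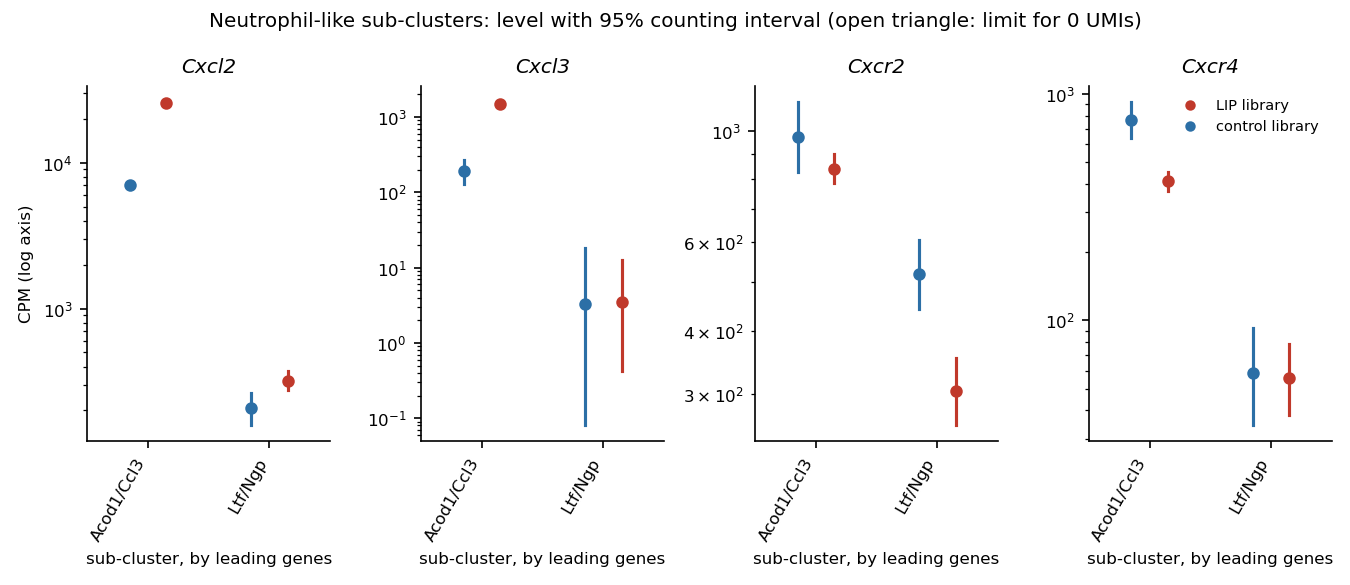
Level (CPM, log axis) of Cxcl2, Cxcl3, Cxcr2 and Cxcr4 in the Acod1/Ccl3 and the Ltf/Ngp sub-clusters of neutrophil-like cells, for the LIP library (red) and the control library (blue). Dots are the pooled level and lines its 95% counting interval. All 4 genes were higher in the Acod1/Ccl3 sub-cluster of both libraries, and Cxcr4 in that sub-cluster was lower in LIP (412 CPM) than in the control (771 CPM).

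Macrophage-like cells were the other main source of Cxcl2. They stood at 6554.5 CPM in LIP and 2133 CPM in the control, a log2 ratio of 1.62 (1.54 to 1.71). The LIP level was below that of neutrophil-like cells, which was 2.56-fold higher, while the control levels of both classes lay near each other (1.18-fold). In LIP 68 of 77 macrophage-like cells held a Cxcl2 UMI, against 16 of 42 in the control. A single control cell held 441 of the 1267 control UMIs, and without the cell with most UMIs in each library the log2 ratio was 2.11. Of the 6 members with at least 50 UMIs in macrophage-like cells, 4 were at least 2-fold higher in LIP (8.02% of all genes tested there) and none was 2-fold lower (3.34%). Among the 4, Cxcl1, Cxcl3 and Cxcl14 held under 50 control UMIs and met that minimum only through LIP, so the count describes these pairs and no more.

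Cxcl2 was also counted at low levels in LIP cells that do not belong to the myeloid lineage. The LIP levels were 31.8 CPM in osteogenic-like, 31.1 CPM in vascular endothelial-like, 51.6 CPM in mural-like and 57.3 CPM in Schwann-like cells, and their intervals overlapped. Of the 55 osteogenic-like cells 47.3% held a UMI, with a median depth of 22517 UMIs per cell, against 95.4% of neutrophil-like cells with a median depth of 3867. With 1000 UMIs drawn from each cell, 0 of 55 osteogenic-like cells held one, which allows a share of up to 5.45%, against 87.2% of 312 neutrophil-like cells. Free RNA from a single source would keep its genes in a fixed ratio, so Cxcl2 was set against 8 neutrophil tracer genes such as S100a8 and S100a9. Per 1000 tracer UMIs, LIP neutrophil-like cells held 71.1 Cxcl2 UMIs. Vascular endothelial-like cells held 99.3 (log2 ratio to neutrophil-like cells 0.48, -0.12 to 1.02), osteogenic-like cells 116 (0.71, 0.24 to 1.14) and mural-like cells 195 (1.46, 0.92 to 1.95), while macrophage-like cells, the other class rich in Cxcl2, held 7059. Schwann-like cells held 124 (0.80, 0.17 to 1.36). Other classes lay below the neutrophil-like value, with 36.8 in T-like (-0.95, -1.90 to -0.14) and 26.3 in epithelial-like cells (-1.43, -1.69 to -1.18). B-like cells held 25.6, from 1 Cxcl2 UMI. The 43 osteogenic UMIs compare with 26.3 that the ratio in neutrophil-like cells would give. Cxcl2 was also counted in barcodes with under 200 genes, at 35.9 CPM in 73 LIP barcodes (22.3 to 55.0) and at 4.11 CPM in 161 control barcodes. The LIP levels of mural-like, osteogenic-like and vascular endothelial-like cells lay inside that interval. However, the 73 LIP barcodes held 584160 UMIs in all, so they were not empty, and their CPM need not equal that of free RNA. In 9 LIP erythroid-like cells Cxcl2 stood at 313 CPM (51 UMIs). The part that free RNA had in any of these levels was not tested.

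In 3 classes the ratio of Cxcl2 rested on few cells. Osteogenic-like cells stood at 31.8 CPM in LIP and 25.8 CPM in the control (log2 0.30, -0.39 to 1.01), but 2 control cells held 16 and 14 of the 32 control UMIs, and without the top cells the log2 ratio was 1.19. T-like cells stood at 43.7 CPM in LIP and 124 CPM in the control (log2 ratio -1.51, -2.56 to -0.57), but 1 control cell held 33 of the 47 control UMIs, and without the top cells the log2 ratio was -0.09. This was 1 of the 2 members with at least 50 UMIs in T-like cells, where 5.27% of all genes tested were at least 2-fold lower and 8.46% higher. Epithelial-like cells stood at 61.6 CPM in LIP and 13.4 CPM in the control (log2 2.21, 1.77 to 2.65). There 1 control cell held 58 of 69 UMIs, and the log2 ratio was 4.15 without the top cells and 5.28 without the barcodes that Scrublet, a caller of doublets, had marked.

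Cxcl3, a close relative of Cxcl2, was nearly absent from the control library, which held 49 UMIs of it against 3929 in LIP. In macrophage-like cells it stood at 1256 CPM in LIP (1198 to 1316), and the control held 0 UMIs, which allows up to 5.05 CPM. With the control set at that limit of 3 UMIs, the LIP level was at least 249-fold higher. The LIP UMIs were unevenly spread, since 883 of 1776 came from 1 cell and only 24 of 77 cells held any. In neutrophil-like cells Cxcl3 stood at 969 CPM in LIP and 66.5 CPM in the control (log2 3.86, 3.35 to 4.43). These UMIs were not carried by a single cell, as the highest of the 103 positive LIP cells held 95 of 1574. As for Cxcl2, the Acod1 sub-cluster held nearly all, with 1495 CPM against 3.49 CPM in the Ltf sub-cluster in LIP.

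Cxcl1, made by macrophages and by tissue cells such as fibroblasts and pericytes, had a different order of named classes in each library. In LIP the highest level was that of macrophage-like cells (349 CPM, 319 to 382). Mural-like cells (203 CPM) and Schwann-like cells (149 CPM) followed, with intervals that overlapped. In the control mural-like cells came first (547 CPM, 489 to 609.6), far above osteogenic-like (68.5 CPM), macrophage-like (62.3 CPM) and vascular endothelial-like cells (52.2 CPM), whose intervals overlapped. A cluster of low-UMI cells that was left unnamed stood at 434 CPM in the control (61 UMIs) and 90.9 CPM in LIP (19 UMIs).

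In macrophage-like cells Cxcl1 was higher in LIP by a log2 ratio of 2.49 (2.005 to 3.01). There were 27 positive cells of 77 in LIP and 2 of 42 in the control. In neutrophil-like cells it stood at 73.3 CPM in LIP, from 23 of 324 cells, and at 0 UMIs in the control, which allows up to 6.44 CPM, so that the LIP level was at least 11.4-fold higher. All 119 of these UMIs lay in the Acod1 sub-cluster. The Cxcl1 level of LIP macrophage-like cells was 4.77-fold that of neutrophil-like cells, the opposite order to Cxcl2.

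Mural cells, the contractile cells of vessel walls, showed the reverse direction for Cxcl1. The levels were 203 CPM in LIP and 547 CPM in the control, a log2 ratio of -1.43 (-1.73 to -1.13). It was the only member of the 3 tested in mural-like cells past 2-fold, where 3.39% of all genes were at least 2-fold lower and 3.87% higher. The difference lay in the sub-cluster led by the pericyte gene Rgs5, with 277 CPM in 22 LIP cells and 1513 CPM in 19 control cells. A single cell held 66 of the 83 LIP UMIs of this sub-cluster, while the highest control cell held 60 of 274. In the sub-cluster led by Myh11 and Tagln, genes of smooth muscle, the levels were 138 and 120 CPM (119.6 before rounding), with a log2 ratio of 0.21 (-0.40 to 0.82). The share of mural-like cells with a Cxcl1 UMI was alike in both libraries, 15 of 45 in LIP and 15 of 46 in the control, and without the top cell of each library the log2 ratio was -2.11. Single control cells held 60, 55 and 54 of the 323 control UMIs of the class, so few cells carried the control level as well.

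In osteogenic-like cells Cxcl1 differed little at class level (96.8 CPM in LIP, 68.5 CPM in the control, log2 0.50, 0.09 to 0.91). The make-up of this class differed between libraries. A sub-cluster with fibroblast genes such as Mfap4 and Clec3b held 25 LIP and 90 control cells, and a sub-cluster with the bone genes Ibsp and Bglap held 30 LIP and 20 control cells. Cxcl1 stood at 139 CPM in LIP and 84.5 CPM in the control in the fibroblast-gene cells, and at 69.9 and 7.71 CPM in the bone-gene cells. A single cell held 43 of the 58 LIP UMIs of the bone-gene cells, and another 42 of the 73 of the fibroblast-gene cells. In Schwann-like cells, the glia of peripheral nerves, 54 of 65 LIP UMIs of Cxcl1 came from 1 cell, and the log2 ratio of 4.70 became 0.55 without the top cells. In that class 3.53% of all genes tested were at least 2-fold higher and 3.67% lower.

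Cxcl5, an ELR ligand of epithelia and connective tissue, was counted almost only in epithelial-like and osteogenic-like cells. Of the 1878 LIP UMIs, 1106 lay in the former and 737 in the latter, and their levels did not differ beyond counting error (533 CPM, 502 to 565, and 544 CPM, 506 to 585). In the control, osteogenic-like cells held 93 of 96 UMIs. The ratio of LIP over control in osteogenic-like cells was 2.86 on the log2 scale (2.55 to 3.19), with 544 CPM against 74.9 CPM. Both sub-clusters were higher in LIP, the fibroblast-gene cells with 343 against 41.8 CPM (log2 3.04) and the bone-gene cells with 672 against 200.5 CPM (log2 1.74). A bone-gene cell held 430 of the 737 UMIs and also 43 Cxcl1 UMIs. Without the top cell of each library the log2 ratio was 2.42. Of 6 members tested in osteogenic-like cells, 2 were at least 2-fold higher, against 3.86% of all genes, and none was 2-fold lower (6.36%).

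In epithelial-like cells, Cxcl5 stood at 533 CPM in LIP and 0.581 CPM (3 UMIs) in the control, a log2 ratio of 9.84 (8.29 to 12.12). Cxcl3 stood at 232 CPM against 0 UMIs (at least 399-fold higher), and Cxcl1 at 66.5 against 0.968 CPM (log2 6.10, 4.84 to 7.75). Of the 7 members tested in this class 5 were at least 2-fold higher in LIP, against 2.61% of all genes tested, and none was 2-fold lower (1.63%). However, Cxcl1, Cxcl3 and Cxcl5 met the minimum of 50 UMIs only through LIP, so the count describes these pairs and no more.

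These UMIs came from few cells of 1 epithelial sub-cluster. Epithelial-like cells split into a sub-cluster led by Krt6b, Krt13 and Krt4, keratins known from upper layers (57 LIP and 113 control cells), and a sub-cluster led by Col17a1, a gene of basal cells that anchors them to the basement membrane (42 and 84 cells). In LIP the basal gene list did not tell them apart, at 22939 CPM in the Krt13 and 22475 CPM in the Col17a1 sub-cluster. The suprabasal list stood at 5703 CPM in the Krt13 cells of LIP and 10164 CPM in those of the control, and 6 of its 7 genes were at least 2-fold lower in LIP over the whole class. In LIP, Cxcl5 stood at 1151 CPM in the Krt13 sub-cluster and 2.68 CPM in the Col17a1 sub-cluster, a 429-fold difference. Cxcl3 differed 186-fold and Cxcl1 19.0-fold in the same direction. Only 8 of the 99 LIP cells held at least 5 Cxcl5 UMIs. Of these 8, 5 also held at least 5 UMIs of Cxcl3, and 4 held that many of all 3 ligands. The top cell held 632 of the 1106 Cxcl5 UMIs and 337 of the 481 Cxcl3 UMIs, with 19 of Cxcl1. It also carried the neutrophil tracer genes at 300.2 UMIs per 10000, against a median of 3.76 in the class, while its own total was 53903 UMIs. The LIP cells of the Krt13 sub-cluster had a median of 6622 UMIs against 29829 in the control, and their tracer level was 4703 against 122 CPM. Part of the tracer list, S100a8 and S100a9, is also expressed by inflamed keratinocytes, and the part that neutrophil RNA had in these values was not tested. Without the top cell of the class the LIP level of Cxcl5 was 234 CPM.

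**Figure D4:**
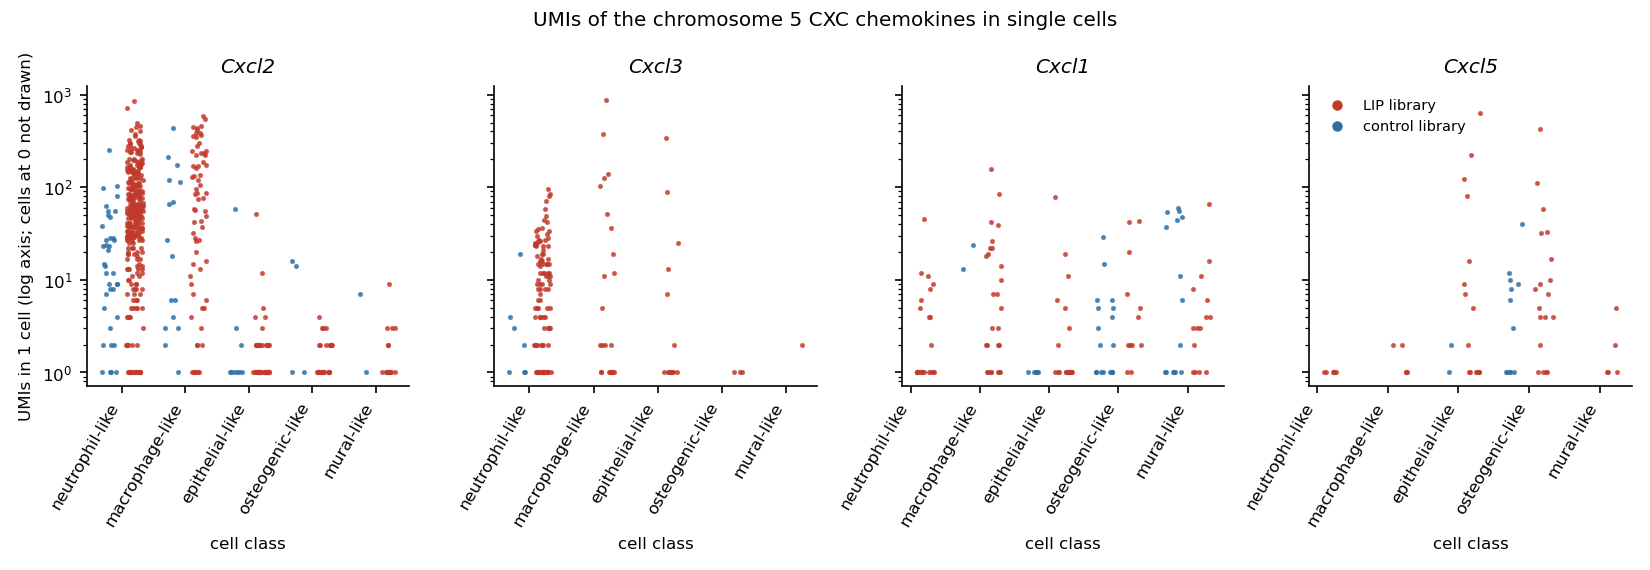
UMIs in single cells (log axis) of Cxcl2, Cxcl3, Cxcl1 and Cxcl5 in 5 cell classes of the control library (blue) and the LIP library (red), with cells at 0 left out. Cxcl2 formed a dense band in LIP neutrophil-like cells up to 862 UMIs, whereas Cxcl3 and Cxcl5 in epithelial-like cells and Cxcl5 in osteogenic-like cells rested on a few cells with up to 337, 632 and 430 UMIs.

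Cxcl12, the ligand of Cxcr4 and Ackr3, marked vascular and connective tissue cells in both libraries. The highest level was that of vascular endothelial-like cells, with 742 CPM in LIP (685 to 801) and 1513 CPM in the control (1386 to 1648). Osteogenic-like cells (200.2 and 369.8 CPM) and mural-like cells (191 and 179 CPM) followed. Their intervals overlapped in LIP and were apart in the control. Lymphatic endothelial-like cells stood at 53.6 and 41.5 CPM, and epithelial-like cells at 1.93 and 2.52 CPM.

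The LIP over control ratio of Cxcl12 in vascular endothelial-like cells was -1.03 on the log2 scale (-1.20 to -0.86), so it lay just past 2-fold, where 3.11% of all genes tested in the class were at least 2-fold lower and 5.32% higher. The value depended on how cells were grouped and weighted. It was -0.57 when each cell had equal weight. Without the top cells it was -0.986, and at a mitochondrial limit of 20% it was -0.995. When clustering used 15 dimensions it was -0.32, but no lymphatic endothelial-like class was named there. The larger vascular endothelial-like sub-cluster then held 68 LIP and 57 control cells, against 62 and 38 in the main setting, so the class was not the same set of cells. Of the 522 control UMIs of the class, single cells held 115, 108 and 59. The ratio also differed between sub-clusters, and the control cell with 115 UMIs lay in the larger one. In the larger one, led by Fabp4 and Selp, the levels were 636 CPM in LIP and 1753 CPM in the control (log2 -1.46, -1.66 to -1.27). In the other, led by the arterial genes Sema3g, Sox17 and Gja5, they were 1102 and 808 CPM (0.45, 0.05 to 0.86), in 17 and 10 cells.

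In osteogenic-like cells the log2 ratio of Cxcl12 was -0.89 (-1.11 to -0.67), and it passed 2-fold with equal weight for each cell (-1.18). The fibroblast-gene cells were 25 of 55 cells of the class in LIP and 90 of 110 in the control. Among them, the levels were 383 and 423 CPM (log2 -0.14, -0.39 to 0.11), but 1 control cell held 108 of their 415 control UMIs. In the bone-gene cells they were 84.4 and 169.6 CPM (log2 -1.01, -1.57 to -0.43). In mural-like cells, the Rgs5 sub-cluster held more than the Myh11 sub-cluster in each library (304 against 91.1 CPM in LIP, 475 against 48.8 CPM in the control). The Rgs5 cells were thus above the Myh11 cells for both Cxcl1 and Cxcl12, although in LIP 1 cell held 66 of their 83 Cxcl1 UMIs.

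Cxcl14 was mainly an epithelial and connective tissue gene. Epithelial-like cells stood at 304 CPM in LIP and 198 CPM in the control (log2 0.62, 0.48 to 0.77). The Col17a1 sub-cluster carried it in both libraries, with 378 CPM in LIP and 427 CPM in the control (log2 -0.17, -0.35 to -0.01), and 41 of 42 and 75 of 84 cells held a UMI. In the Krt13 sub-cluster the levels were 218 and 50.2 CPM, but 175 of the 209 LIP UMIs came from 1 cell, and without the top cells the log2 ratio of the class was 0.25. Cxcl14 and Cxcl5 thus differed in the sub-cluster that held most of their UMIs. In LIP the Col17a1 cells were 1.74-fold above the Krt13 cells for Cxcl14, while Cxcl5 lay in the Krt13 cells.

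In osteogenic-like cells Cxcl14 stood at 203 CPM in LIP and 61.2 CPM in the control, a log2 ratio of 1.73 (1.36 to 2.12). Both sub-clusters were higher in LIP, with 175 against 44.8 CPM in the fibroblast-gene cells and 221 against 123 CPM in the bone-gene cells. The bone-gene ratio was under 2-fold (log2 0.84, 0.29 to 1.43). Positive cells numbered 26 of 55 in LIP and 22 of 110 in the control, but the median depth was 22517 UMIs in LIP and 11781 in the control. These shares are thus not at equal depth. Single LIP cells held 57 and 52 of the 275 UMIs. Cxcl14 and Cxcl5 were the members past 2-fold in this class.

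In Schwann-like and macrophage-like cells the Cxcl14 values rested on single cells. Schwann-like cells stood at 167 CPM in LIP and 460 CPM (459.7 before rounding) in the control, a log2 ratio of -1.46, but 1 control cell held 76 of 80 UMIs. Without the top cells the log2 ratio was 2.07. The sub-cluster led by Scn7a, a gene of non-myelinating Schwann cells, held 396 CPM in LIP, from 11 of 28 cells, and 21.7 CPM in the control. In macrophage-like cells 68 of 81 LIP UMIs came from 1 cell (57.3 CPM in LIP, 6.73 CPM in the control).

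Cxcl16 was chiefly a macrophage gene. Macrophage-like cells stood at 364 CPM in LIP (333 to 397) and 261 CPM in the control (221 to 305), a log2 ratio of 0.48 (0.22 to 0.75), and they held 76.2% of the Cxcl16 UMIs of the LIP library. In LIP 56 of 77 cells were positive, against 20 of 42 in the control. Neutrophil-like cells, the other myeloid class, held 1 UMI in LIP and 0 in the control. Epithelial-like cells were low, with 33.2 and 14.7 CPM (log2 1.18, 0.68 to 1.66), and the ratio was under 2-fold at a clustering resolution of 0.3 (0.95).

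**Figure D5:**
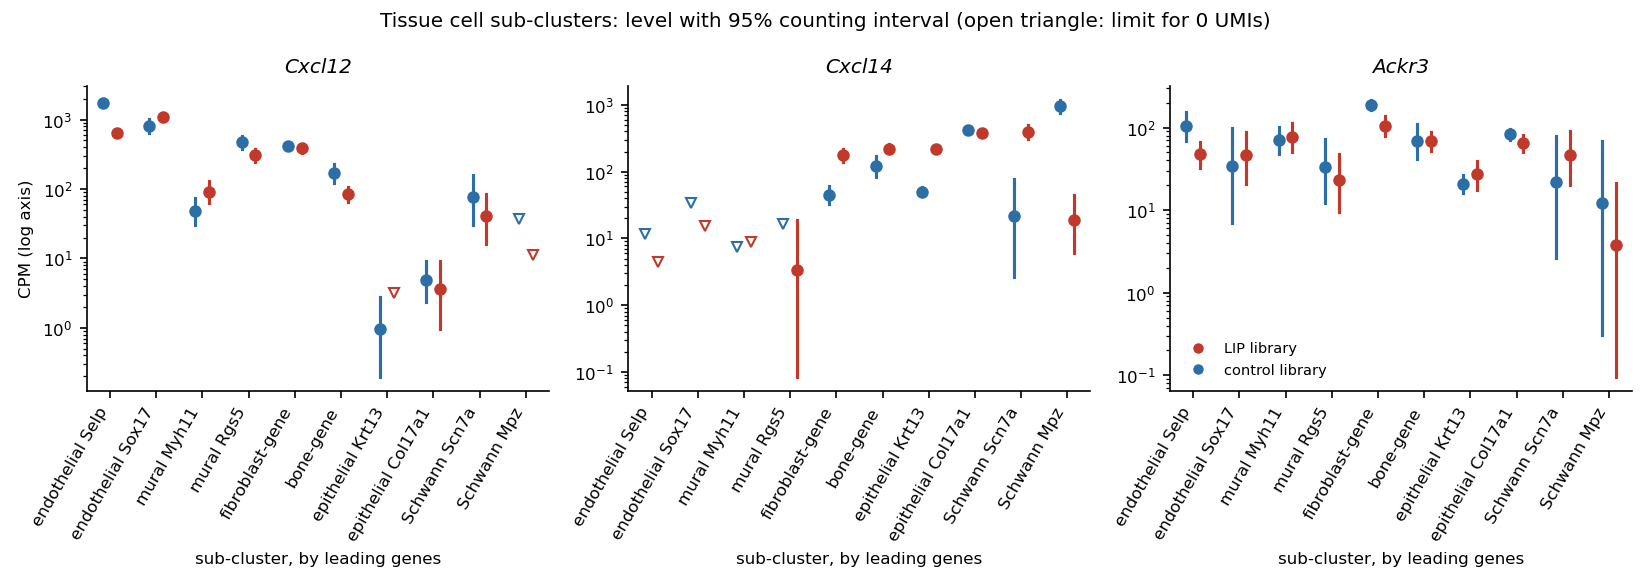
Level (CPM, log axis) of Cxcl12, Cxcl14 and Ackr3 in 10 sub-clusters of endothelial-like, mural-like, osteogenic-like, epithelial-like and Schwann-like cells, for the LIP library (red) and the control library (blue). Dots and lines give the pooled level with its 95% counting interval, and open triangles the limit that 0 UMIs allow. Cxcl12 was high in endothelial, Rgs5 mural and fibroblast-gene cells, and Cxcl14 in Col17a1 epithelial cells.

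Cxcr2, the receptor of the ELR ligands, was counted almost only in neutrophil-like cells, which held 98.3% of its UMIs in LIP and 95.2% in the control. Its level was 651 CPM in LIP (613 to 692) and 674 CPM in the control (601 to 752). The log2 ratio was -0.05 with an interval of -0.23 to 0.14, which leaves out a 2-fold difference in either direction by counting error. In LIP 261 of 324 neutrophil-like cells held a UMI, against 50 of 52 in the control, at median depths of 3867 and 6529 UMIs. At an equal depth of 1000 UMIs drawn per cell, the shares were 43.3% and 51.9%. Each other named class stood at 3.78 CPM or less. In LIP epithelial-like cells 5.05% held a UMI at a median depth of 22731, and none did at the equal depth. Cxcr2 was higher in the Acod1 than in the Ltf sub-cluster, with 841 against 304 CPM in LIP and 974 against 520 CPM (519.6 before rounding) in the control. The log2 ratio of LIP over control was -0.21 (-0.46 to 0.04) within the Acod1 and -0.77 (-1.09 to -0.46) within the Ltf sub-cluster. Both lay below the class ratio, and the LIP class held a larger share of Acod1 cells, 286 of 324 against 33 of 52.

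Cxcr4 was shared by the leukocyte classes. In the control B-like cells were highest (478 CPM, 433 to 526), before neutrophil-like (300.4 CPM), T-like (198 CPM) and macrophage-like cells (138 CPM). In LIP the order was B-like (542 CPM), T-like (291 CPM), neutrophil-like (286 CPM) and macrophage-like (201 CPM), and the intervals of T-like and neutrophil-like cells overlapped. The log2 ratios of LIP over control were 0.18 (-0.27 to 0.61) in B-like, 0.56 (0.08 to 1.03) in T-like, 0.54 (0.18 to 0.91) in macrophage-like and -0.07 (-0.34 to 0.21) in neutrophil-like cells. None of the 4 passed 2-fold. In B-like cells, where Cxcr4 was the member tested, 6.98% of all genes were at least 2-fold higher and 9.01% lower.

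In neutrophil-like cells the class values of Cxcr4 were closer than those of the larger sub-cluster. In the Acod1 sub-cluster Cxcr4 stood at 412 CPM in LIP (374 to 453) and 771 CPM in the control (641 to 921), a log2 ratio of -0.91 (-1.20 to -0.60). In the Ltf sub-cluster it was low in both libraries, 55.9 and 58.5 CPM. The LIP class held a larger share of Acod1 cells, 286 of 324 against 33 of 52, and the class values were close to each other. With equal weight for each cell the log2 ratio of the class was -0.76.

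Many neutrophil-like cells held UMIs of both receptors. In LIP 151 of 324 held Cxcr2 and Cxcr4, 110 held only Cxcr2, 30 only Cxcr4 and 33 neither. The control counts were 33, 17, 2 and 0 of 52. At the equal depth, 50 of 312 LIP cells and 6 of 52 control cells held both. There, 37.0% of the 135 LIP cells with Cxcr2 held Cxcr4, against 22.0% of the 177 without it. In the control the order was the other way, with 6 of 27 cells against 10 of 25.

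Ackr3, the receptor that takes up Cxcl12, was highest in lymphatic endothelial-like cells, with 513 CPM in 19 control cells (431 to 607) and 536 CPM in 5 LIP cells (362 to 766), where 1 cell held 26 of 30 UMIs. Of the other classes, osteogenic-like cells were highest, with 82.7 CPM in LIP and 163 CPM in the control. Their log2 ratio was -0.98 (-1.32 to -0.64), at the edge of 2-fold, and it was -1.12 at a mitochondrial limit of 5% and -1.02 without the top cells. The fibroblast-gene cells were lower in LIP (105 against 187 CPM, log2 -0.84), while the bone-gene cells had 68.7 and 69.4 CPM. Vascular endothelial-like cells stood at 47.2 and 86.9 CPM (log2 -0.88, -1.60 to -0.15). The latter ratio was past 2-fold at a mitochondrial limit of 5% (-1.24) and with equal weight for each cell (-1.08). With 15 dimensions it was -1.83, but no lymphatic endothelial-like class was named there. The larger vascular endothelial-like sub-cluster then held 68 LIP and 57 control cells, against 62 and 38 in the main setting, so the class was not the same set of cells. In mural-like cells the levels were 51.6 and 59.2 CPM (log2 -0.20, -0.93 to 0.53). In epithelial-like cells they were 47.7 and 45.3 CPM (log2 0.07, -0.28 to 0.42), with the Col17a1 cells above the Krt13 cells in both libraries.

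Genes of like pattern were ranked for each member over 21 pools of a class and a library, by Pearson's r of log2(CPM + 10) among 13123 genes. The pools share libraries and depth, so r is a description only. The order depends on the pseudocount: with 1 in place of 10, 14 of the 30 genes named here stayed among the first 3 of their member, and the others ranked as low as 18. Nearest to Cxcl2 were the inflammasome sensor Nlrp3 (r = 0.957), the cytokine Il1b (0.949) and the endotoxin co-receptor Cd14 (0.949). Nearest to Cxcl3 were Csf3, the growth factor of neutrophils (0.934), Il1rn (0.926) and Il1a (0.858). Cxcr2 was nearest to Gm1604a, Stfa2 and Mrgpra2b (0.996 to 0.995), and Cxcr4 to Neurl3 (0.966), Akna (0.960) and Coro1a (0.960). Nearest to Cxcl12 were Pxdn (0.978), Pdgfd (0.946) and Fat4 (0.928), and to Ackr3 Amacr (0.954), Amotl1 (0.944) and Cdc42ep5 (0.929). For Cxcl14 they were Eya4 (0.928), Plxna3 (0.906) and Lrrc8e (0.902), and for Cxcl16 Ms4a6d (0.904), Grk3 (0.903) and Fkbp1b (0.896). Cxcl5 had Pcp4 (0.876), Col7a1 (0.843) and Wnt5a (0.841). Cxcl1, whose order of classes changed between libraries, had the lowest values, with Aifm2 (0.764), Fads3 (0.758) and Stbd1 (0.757). Among the members themselves, Cxcl2 and Cxcl3 had an r of 0.763, and Cxcl12 and Ackr3 of 0.674.

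A list of 14 genes that process CXC ligands or carry the signal of their receptors was also counted. In neutrophil-like cells 12 were tested, of which 2 were at least 2-fold higher in LIP and 1 lower, against 12.5% and 3.07% of all genes. The former were Mif, a ligand of Cxcr2 and Cxcr4 outside the CXC family (75.7 against 17.2 CPM), and Adam17, a protease of membrane proteins (40.6 against 17.2 CPM). The latter was Cd74, which binds Mif (49.3 against 191 CPM). In macrophage-like cells all 14 were tested, of which 1 was higher and 2 lower, against 8.02% and 3.34% of all genes. Such small counts show nothing particular to the list. Mif was higher (494 against 108 CPM), while Cd74 (12615 against 28354 CPM) and Dpp4, a protease that trims chemokines (21.2 against 45.4 CPM), were lower.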

How the data were processed

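The authors aligned the reads to the mouse genome (mm10) with Cell Ranger, whose matrix headers give version 3.1.0, and deposited the unnormalized UMI counts of every gene in each barcode. Barcodes with 200 to 7500 genes, at most 60000 UMIs and at most 10% mitochondrial UMIs were kept. Integration and clustering of the libraries used Seurat (version 5.3.0, R version 4.3.3). Settings were 2000 variable genes without CXC genes other than Pf4, 30 dimensions and resolution 0.1, then 0.2 within each cluster. Sub-clusters were named "-like" from marker lists, which left the low-UMI, Top2a-led and Tff2-led clusters unnamed. Doublets were kept, since Scrublet in scanpy 1.11.5 marked only 1 LIP and 4 control barcodes. UMIs were summed per class, with exact Poisson, Clopper-Pearson and conditional 95% intervals (scipy 1.17.1) and a limit of 3 counts for a sum of 0. Library totals of kept cells were 10560109 UMIs in LIP and 13407122 in the control. Ratios used genes with at least 50 UMIs. The ratio step was checked on simulated Poisson counts, which hold no spread between cells or mice and so do not check for it. The members, marker lists and gene lists were chosen with earlier results of these data known. The text names all 10 members and the 3 genes most like each member, but only some of the listed genes. Alternatives were other mitochondrial limits, resolutions, dimensions, doublet removal, equal cell weights, CXC genes kept in clustering, removal of the top cell, another scaling, UMI minimums, thinning to 2000 UMIs and a pseudocount of 1. Of the listed genes, Cxcl11 was not in the table. Nothing says which mouse a cell came from, so each library counts as 1 sample.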

Additional observations from a re-analysis of the deposited data

Results flagged for a closer look

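Some genes lay past 2-fold in opposite directions in different classes, and the difference between those classes was not tested. Cxcl1 had log2 ratios of LIP over control of 3.51 in neutrophil-like (a lower bound), 2.49 in macrophage-like, 6.10 in epithelial-like and 4.70 in Schwann-like cells, against -1.43 in mural-like cells. In LIP single cells held 54 of 65 Cxcl1 UMIs in Schwann-like, 79 of 138 in epithelial-like and 66 of 130 in mural-like cells. Without the top cells the Schwann-like ratio of Cxcl1 was 0.55. For Cxcl2 the ratios were 2.74 in neutrophil-like, 1.62 in macrophage-like and 2.21 in epithelial-like cells, against -1.51 in T-like cells, where a single control cell held most UMIs. Cxcl14 stood at 3.09 in macrophage-like and 1.73 in osteogenic-like cells, against -1.46 in Schwann-like cells, and the first and last of these rested on 1 cell each.

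Barcodes outside the filters also held members above the control level. In barcodes with under 200 genes Cxcl2 stood at 35.9 CPM in LIP. In barcodes with at least 200 genes and over 10% mitochondrial UMIs, it stood at 476 CPM in 179 LIP and 63.2 CPM in 109 control barcodes. Cxcl3 (36.7 against 0 CPM) and Cxcl5 (77.0 against 11.8 CPM) were also higher in LIP in that set, and the intervals of the other members overlapped. In the 24 LIP barcodes over the limits of 60000 UMIs or 7500 genes, Cxcl1 stood at 289.6 CPM and Cxcl5 at 332 CPM, against 1.42 and 0 CPM in 16 control barcodes. The other members whose LIP interval lay above that of the control there were Cxcl2 (45.6 CPM), Cxcl3 (34.9 CPM), Cxcl12 (11.1 CPM), Cxcl14 (58.3 CPM), Cxcl16 (30.5 CPM) and Ackr3 (34.9 CPM). These barcodes were not matched for cell class between the libraries. Single LIP barcodes held 444 of the 730 Cxcl1, 82 of the 147 Cxcl14 and 16 of the 28 Cxcl12 UMIs.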

How the results depend on the processing

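No paired analysis was possible because each group had 1 library. Each ratio was recomputed under 11 alternatives. Without the cell with the most UMIs of the gene, the log2 ratios were 0.25 for Cxcl14 in epithelial-like cells, 3.04 for Cxcl2 in neutrophil-like, 3.42 for Cxcl1 and 6.93 for Cxcl3 in macrophage-like and 2.42 for Cxcl5 in osteogenic-like cells, and 2 pairs instead of 4 were at least 2-fold lower. With equal cell weights they were 0.37 (Cxcl14, epithelial-like), -0.57 (Cxcl12, vascular endothelial-like), 1.90 (Cxcl2, neutrophil-like), 3.02 (Cxcl1, macrophage-like) and 0.77 (Cxcl16, macrophage-like). A mitochondrial limit of 5% gave 0.87 for Cxcl14 in epithelial-like and -1.32 for Cxcl12 in vascular endothelial-like cells, and 15 dimensions gave -0.32 for the latter and 2.602 for Cxcl2 in neutrophil-like cells. With 15 dimensions no lymphatic endothelial-like class was named, and the vascular endothelial-like class was not the same set of cells. With no minimum of UMIs, 29 pairs were higher and 15 lower. Both counts include pairs with 0 UMIs in 1 library, whose side was set by the limit of 3 counts. Cxcl16 in neutrophil-like cells, with 1 LIP UMI and 0 control UMIs, counted as lower (-3.39). Cxcr2 in B-like cells, with 0 LIP UMIs and 2 control UMIs, counted as higher (3.83). The 29 and 15 therefore cannot be read as numbers of pairs that differed in that direction. Cxcl14 in Schwann-like cells turned from -1.46 to 1.78 at the limit of 5% and to 2.07 without the top cell. Cxcl1 in osteogenic-like cells was -0.13 at the limit of 5% and -0.15 with CXC genes kept in clustering. For these changes in sign the cause was not tested beyond the removal of a cell. Over the 35 ratios, the side of a 2-fold difference changed in 2 with 15 dimensions, 4 with equal weights, 1 at a limit of 20%, 1 at resolution 0.3 and 6 without the top cell, and in 3 of 31 at 5%. It changed in none with Scrublet barcodes removed, CXC genes kept, another scaling or other UMI minimums. The main limits are 1 library of 5 pooled mice per group, classes of as few as 19 cells behind a ratio and 5 behind a level, in which a single cell can set a level, and a median depth in LIP below that of the control.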

Other observations

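Among the CXC genes outside the 10 members, Ppbp, an ELR ligand known from platelets, stood at 1547 CPM in LIP and 4.07 CPM in the control in epithelial-like cells. Of its 3212 LIP UMIs, 2083 lay in 1 cell, the cell that also held the most Cxcl5 and Cxcl3. Cxcr6, the receptor of Cxcl16, stood at 648 CPM in LIP and 304 CPM in the control in T-like cells, with 16 of 27 and 17 of 51 cells positive. Ackr1, a scavenger of chemokines on venules, stood at 335 and 151 CPM in vascular endothelial-like cells. Cxcl10, a ligand induced by interferon, stood at 241 and 261 CPM in macrophage-like cells, and its mural level of 484 CPM in LIP came from 1 cell for 300 of 310 UMIs. In the control, 154 Cxcl13 UMIs and 222 Pf4 UMIs of osteogenic-like cells lay in 4 cells each. Cxcr5, a receptor of B cells, held 97 UMIs in control B-like cells (111 CPM) and 6 in LIP. Pf4, itself among the macrophage markers, stood at 193 and 428 CPM in macrophage-like cells. Cxcl15 held 0 UMIs in both libraries.

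Some LIP barcodes over the upper limits held several ELR ligands together. Of the 8 with epithelial marker genes at 10000 CPM or more, 4 held at least 5 UMIs each of Cxcl1, Cxcl3 and Cxcl5, and the other 4 held at most 1 of each. Of the 8 such control barcodes, 0 held at least 5 of each. These bounds were chosen after the values were seen. A barcode with 105347 UMIs and epithelial marker genes at 32360 CPM (32359.7 before rounding) held 127 Cxcl1, 30 Cxcl3 and 369 Cxcl5 UMIs. Another, with 77298 UMIs and epithelial markers at 43546 CPM, held 68, 42 and 260. A further one, with 83092 UMIs and 47429 CPM, held 58, 7 and 43. Their neutrophil marker levels were 2515.5, 6210 (6209.7 before rounding) and 1299.8 CPM. The remaining barcode of the 4, with 153074 UMIs and epithelial markers at 61885 CPM, held 9, 6 and 25. Its neutrophil marker level was far higher, at 32729 CPM. A barcode with 79853 UMIs and osteogenic markers at 34902 CPM held 444 Cxcl1 UMIs, 18 of Cxcl5 and none of Cxcl3.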
